A study of Caenorhabditis elegans with 4 samples.

Results

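The genes described here are 32 pan-neuronal and synaptic vesicle genes of Caenorhabditis elegans, chosen by symbol, of 19971 protein-coding genes on the 6 chromosomes. Most were grouped under presynaptic or dense core vesicle roles, and 6 under axonal transport and cytoskeleton. All 32 were examined for binding of UNC-62, a homeodomain transcription factor of the MEIS/Homothorax class, in embryos. One of them, unc-119, is carried by the transgene of the strain as its marker and is given apart, which leaves 31 members against 19939 other protein-coding genes.

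Chromatin immunoprecipitation followed by sequencing (ChIP-seq) was done in whole hermaphrodite embryos of the strain OP600, raised at 20 °C and crosslinked with 2% formaldehyde. All samples carry the unc119(ed3) mutation and the bombarded transgene wgIs600, which holds unc-62 with TY1, EGFP and FLAG tags together with unc119. The 4 samples form the groups UNC-62 ChIP, taken with anti-GFP antibodies (2 replicates), and Input, the lysate kept back as control (2 replicates). The binding seen is that of the tagged protein made from the transgene. The region lists analysed here are those of the ChIP samples, and the Input samples enter no comparison of their own.

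Neurons release transmitter when vesicles dock at the active zone and fuse with the plasma membrane through SNARE proteins, and the spent membrane is taken back by endocytosis. Peptides are processed inside dense core vesicles and released by a related route, and kinesin motors carry both kinds of vesicle along axonal microtubules. Genes for these steps are switched on in most C. elegans neurons as they differentiate in the embryo. MEIS proteins commonly bind DNA together with PBC and Hox homeodomain partners, and UNC-62 is known from worms for roles in embryonic patterning, cell migration and intestinal gene expression. Because the chromatin came from whole embryos, strong binding in few cells and weak binding in many cells cannot be told apart.

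The data are 3 lists of regions called by the authors, 7964 for the whole series, 7782 for replicate 1 and 3138 for replicate 2. Each region has a position on the WormBase WS220 build and 1 value, read here as a q-value (smaller means stronger). The lists hold no read counts, so sequencing depth is unknown. The q-values reach 0.000997 in the series list, 0.00999 in replicate 1 and 0.000998 in replicate 2, so replicate 1 was called to a looser limit. Strength is therefore given as a rank within a list, with rank 1 the strongest, and as a percentage of the list. Gene positions came from a table on the later WBcel235 assembly, which differs from WS220 by about 100 bp at most, and which was used without strand. Which end of a gene is its 5′ end was thus not used. A gene was counted as having a region when a region midpoint lay inside it or within 2 kb of either end, and regions inside and outside the gene were also counted separately. The labels do not say that the 2 ChIP replicates were separate cultures, so agreement between them may be technical.

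Regions lay at most of these genes. In the series list 26 of 31 members (83.9%) had at least 1 region, beside 36.0% of the other protein-coding genes. In replicate 1 the count was 24 of 31 (77.4%), beside 35.2% of the others. In replicate 2 it was 12 of 31 (38.7%), beside 17.0% of the others. Both replicate lists had a region at 11 members (35.5%), beside 16.5% of the others. The share of members thus lay above that of the other genes in each list, and it was lowest for the members, as for the other genes, in the shorter replicate 2 list. Since the members were chosen with earlier results of these data known, the shares are given as a description and no test was run on them.

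Gene length differed between the members and the rest, and length moved with the shares. The median member was 8.01 kb long, from 0.94 kb (snb-1) to 52.6 kb (unc-2), against a median of 2.0 kb for the other genes. Among the other genes the share with a region in the series list was 27.5% below 2 kb, 38.2% from 2 to 5 kb, 53.2% from 5 to 10 kb and 69.7% at 10 kb or more. Weighted to the members' numbers in these length classes, the share of the other genes was 52.7% in the series list, 51.2% in replicate 1 and 27.2% in replicate 2. Against these, the members' 83.9%, 77.4% and 38.7% stood higher by less than against the unweighted shares. Length within a class was not matched, and the open class of 10 kb or more held 10 members. In replicate 2 the weighted share corresponds to 8.43 genes of 31, where 12 were seen. By class, the members with a series region were 2 of 3 below 2 kb, 7 of 7 from 2 to 5 kb, 8 of 11 from 5 to 10 kb and 9 of 10 at 10 kb or more.

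**Figure D1:**
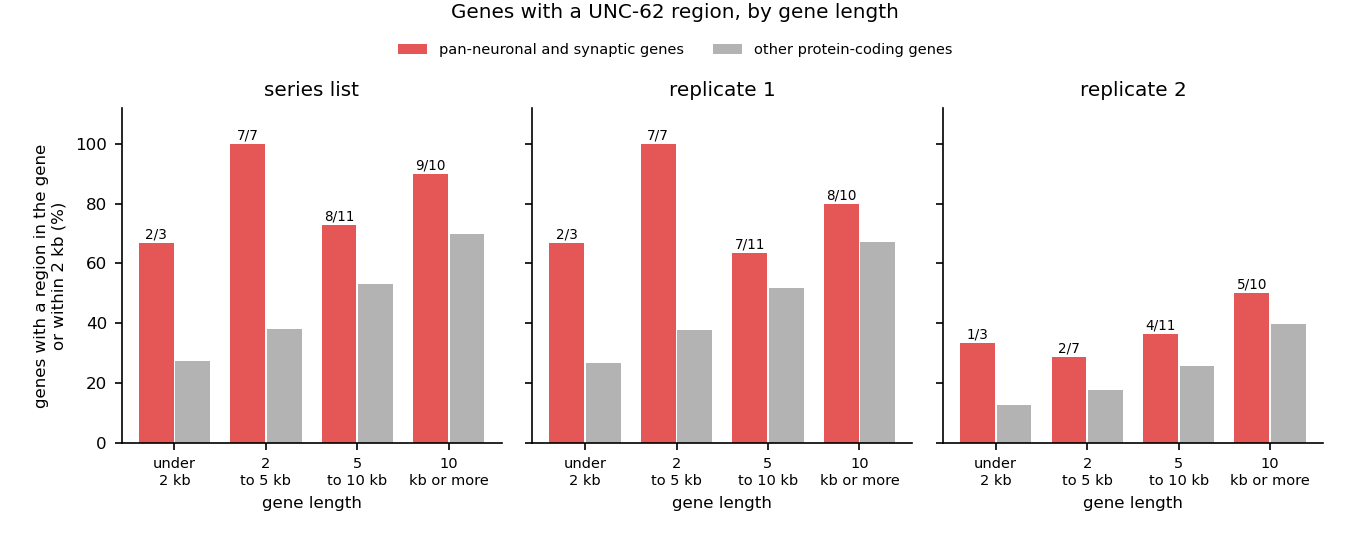
Percentage of genes with a UNC-62 region inside the gene or within 2 kb of either end, by gene length (kb, from the gene table), in the series list and in each ChIP replicate. Red bars are the 31 pan-neuronal and synaptic genes, with counts above them, and grey bars are the other protein-coding genes; the grey bars rise with length, reaching 69.7% in the series list at 10 kb or more, where 9 of 10 members had a region.

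The place of the regions also bears on gene length. A region lay inside the gene in 13 of 31 members (41.9%), beside 9.58% of the other genes, in the series list. Replicate 1 gave 11 of 31 (35.5%, beside 9.22%) and replicate 2 gave 6 of 31 (19.4%, beside 3.81%). The 2 kb flanks, which have the same length for every gene, held a region in 21 of 31 members (67.7%), beside 31.3% of the others. The corresponding flank counts were 21 of 31 in replicate 1 (67.7%, beside 30.5%) and 9 of 31 in replicate 2 (29.0%, beside 14.3%). A count that holds whichever end of the gene is the 5′ end, with a region inside the gene or in both flanks, gave 14 of 31 members (45.2%), beside 12.9% of the others. The strand-aware count therefore lies between 14 and 26 members.

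In all, 47 regions of the series list fell to the 31 members, 21 inside genes and 26 in flanks. Most members had few. A single region was found at 15 members, 2 regions at 6, 3 at 2, 4 at 1 and 5 at 2, and 5 members had none. At least 3 regions lay at 5 members (16.1%), beside 3.83% of the other genes. Per 100 kb of gene plus flanks there were 10.6 regions at members and 7.67 at the other genes in the series list. Replicate 1 gave 10.2 and 7.44, and replicate 2 gave 4.08 and 2.97. This density was not higher at members in every length class. At 10 kb or more it was 7.76 per 100 kb at members and 9.13 at the other genes. The number of regions followed gene length only loosely, with a Spearman rho of 0.27 over the 31 members and 0.23 over the other genes, given as a description across genes that share the same libraries.

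The regions at members resembled the rest of the series list in strength and width. Their median rank was at 52.4% of the list, against 50.0% for the remaining 7917 regions, and their median width was 321 bp, against 312 bp. Both replicates had a matching region, sharing at least 1 bp, for 17 of the 47 (36.2%), against 36.7% of the remaining regions. A further 21 (44.7%) matched replicate 1 only, against 47.9% of the remaining regions, and 9 (19.1%) matched neither, against 14.1%. Of the 47, 20 also lay within 2 kb of another protein-coding gene, and for 7 another gene was nearer than the member. Of the 47, 6 (12.8%) were among the strongest 10% of the series list, against 9.98% of the remaining regions. Such a region lay at 5 of 31 members (16.1%), beside 4.28% of the other genes, and these 5 were unc-76, unc-44, unc-33, syd-2 and unc-116.

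**Figure D2:**
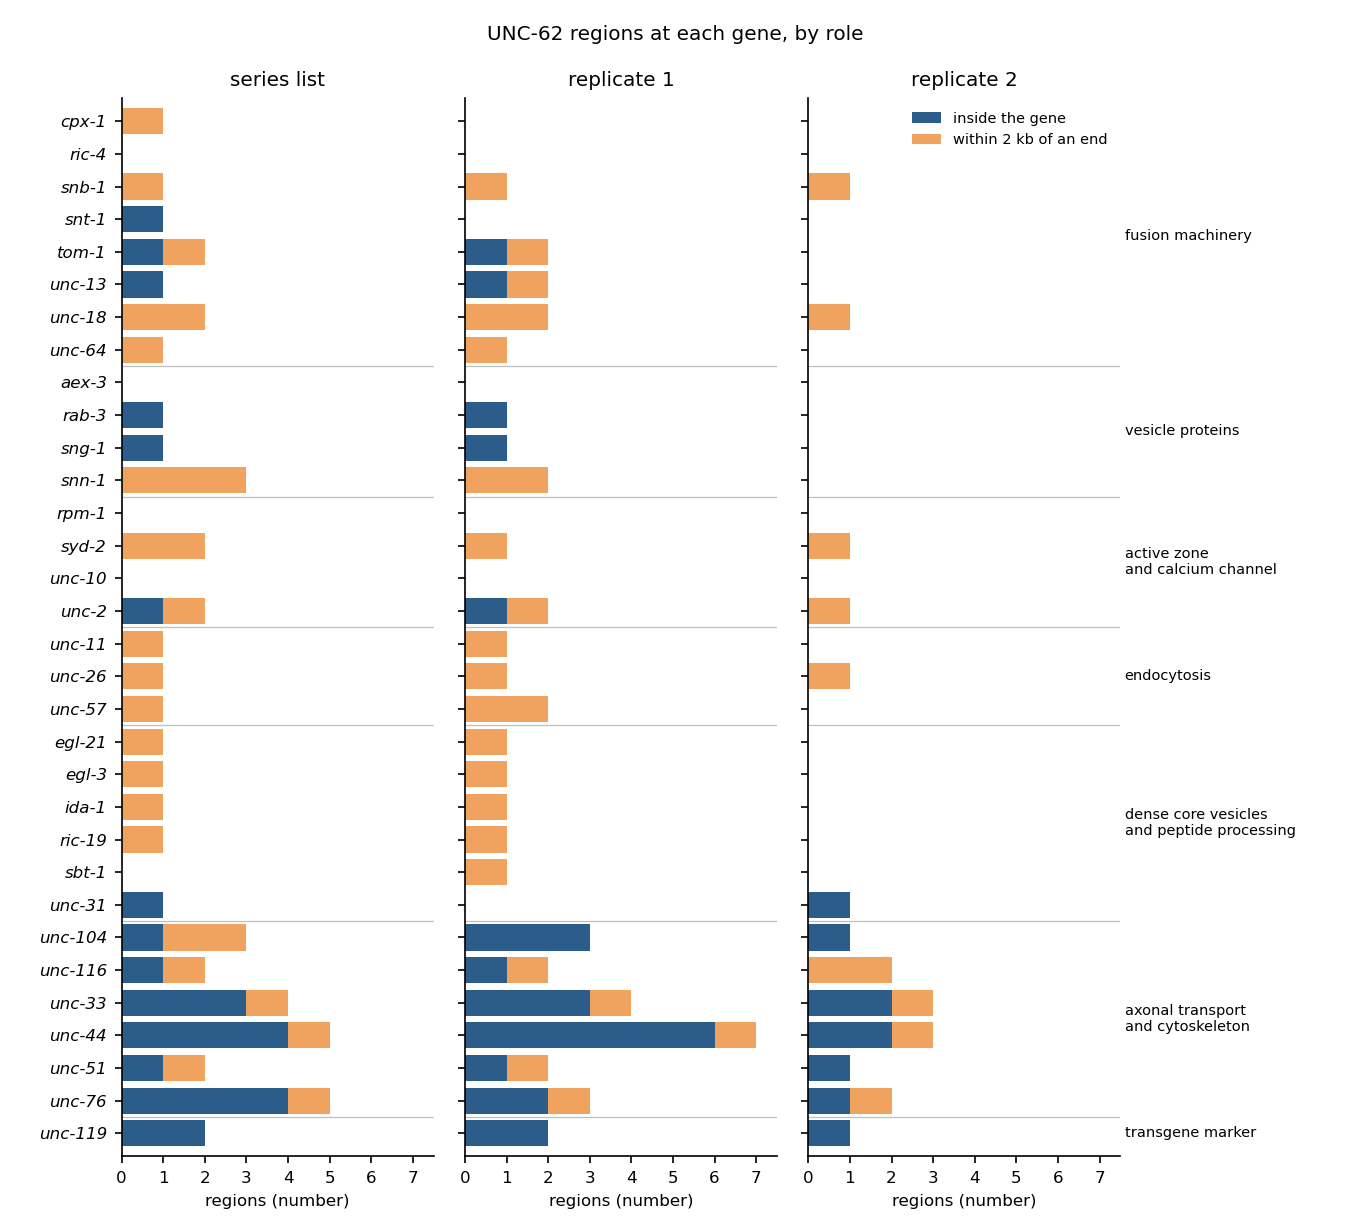
Number of UNC-62 regions at each gene (horizontal axis) in the series list, replicate 1 and replicate 2, with genes grouped by role down the page. Blue is inside the gene and orange is within 2 kb of either end; the axonal genes at the bottom carry 2 to 5 regions each in the series list, and no other member carries more than 3.

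The genes of axonal transport and cytoskeleton held 5 of the 6 regions at members that were among the strongest 10% of the series list. Each of the 6 had a region in all 3 lists. Other protein-coding genes weighted to their length classes gave 56.2% in the series list, 54.6% in replicate 1 and 29.1% in replicate 2. Each of the 6 had a region inside the gene in the series list, beside 9.58% of the other protein-coding genes, unweighted for length. Together the 6 held 21 of the 47 regions, 21.1 per 100 kb, against 7.6 per 100 kb at the other 25 members and 7.67 at all other protein-coding genes. In replicate 2 they had 12.1 regions per 100 kb, against 1.75 at the other 25 members. Both replicates matched 12 of their 21 regions (57.1%), against 5 of 26 (19.2%) at the other members. The comparison of these 6 with the rest was chosen after the values were seen, so it carries no test, and strengths overlapped: the strongest regions of unc-64, unc-18 and snb-1 ranked above that of unc-104. Of the other 25 members, 20 had a series region (80.0%) and 6 a replicate 2 region (24.0%). Other protein-coding genes weighted to the length classes of these 25 gave 51.8% and 26.7%. Since the split took out genes that all had a replicate 2 region, nothing is read from these values.

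The highest-ranking region of any member was at unc-76, which encodes the FEZ-family protein needed for axon bundling and growth. It lay at chrV:15070957-15071944 (988 bp) across the lower-coordinate end of the gene. It ranked 73 in the series list (q-value 1.81e-82), 87 in replicate 1 (3.31e-55) and 49 in replicate 2 (1.05e-34), within the strongest 1.56% of each list. Its midpoint was also within 2 kb of dnj-3. A further 4 series regions lay inside unc-76, of which that at chrV:15078501-15078889 (q-value 6.87e-22) was in both replicates. The midpoint of that region was also within 2 kb of C01G10.10. Altogether unc-76 and its flanks held 5, 3 and 2 regions in the series, replicate 1 and replicate 2 lists.

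At unc-44, which encodes the ankyrin that organises the axonal membrane skeleton, 5 regions were listed in the series list, 7 in replicate 1 and 3 in replicate 2. The strongest, chrIV:5973673-5974536 (864 bp), was outside the gene, 1.45 kb from its lower-coordinate end, and no other protein-coding gene lay within 2 kb. It ranked 201 in the series list (q-value 4.82e-55), 226 in replicate 1 (1.3e-34) and 233 in replicate 2 (9.08e-18). Inside the 29.3 kb gene the widest was chrIV:5986777-5987991 (1215 bp, q-value 4.02e-33), 11.8 kb from that end and present in both replicates. Next to it was a further region shared by both replicates, chrIV:5985297-5986211 (q-value 2.15e-12). The midpoints of the 4 series regions inside the gene thus lay within 11.8 kb of its lower-coordinate end.

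The gene unc-33 encodes the worm CRMP, a microtubule-associated protein of axons. It had 4 regions in the series list, 4 in replicate 1 and 3 in replicate 2. The strongest was inside the gene at chrIV:3520951-3522026 (1076 bp), with rank 306 in the series list (q-value 3.68e-45), 274 in replicate 1 (5.57e-32) and 538 in replicate 2 (1.32e-11). A second region inside, chrIV:3524708-3524961, and one in the lower flank, chrIV:3515654-3515974, were in both replicates with series q-values of 6.61e-16 and 1.72e-14. The flank region was also within 2 kb of tsg-101.

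The kinesin-1 heavy chain gene unc-116 had a pair of wide regions near its higher-coordinate end. The stronger, chrIII:8356185-8357052 (868 bp), lay 1.44 kb outside the gene, and R05D3.8 was nearer to it. Its rank was 579 in the series list (q-value 2.97e-32), 625 in replicate 1 (2.19e-20) and 370 in replicate 2 (5.92e-14). The other, chrIII:8354491-8355354 (864 bp, q-value 5.45e-13), spanned the gene end and was also in both replicates. In replicate 2 it ranked only 2992 of 3138 (0.00078), and R05D3.8 was within 2 kb of it too. Regions, with the one nearer to R05D3.8 included, covered 21.6% of unc-116 and its flanks in the series list, the highest share of any member.

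The last 2 axonal genes had weaker binding. At unc-51, the ULK/ATG1 kinase gene required for axon extension, a region inside the gene, chrV:20001027-20001547, ranked 1215 in the series list (q-value 3.18e-20) and 955 in replicate 1 (8.6e-16). In replicate 2 it ranked only 2429 (0.000185). At unc-104, the kinesin-3 motor gene for synaptic vesicle precursors, the strongest region was chrII:6992852-6993266 with rank 3910 (q-value 8.68e-08), 1.93 kb from the gene and nearer to C15F1.1. It matched a region of replicate 1 (0.000347) and none of replicate 2. A weaker region inside unc-104, chrII:6995903-6996131, was in both replicates (series q-value 1.37e-06).

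**Figure D3:**
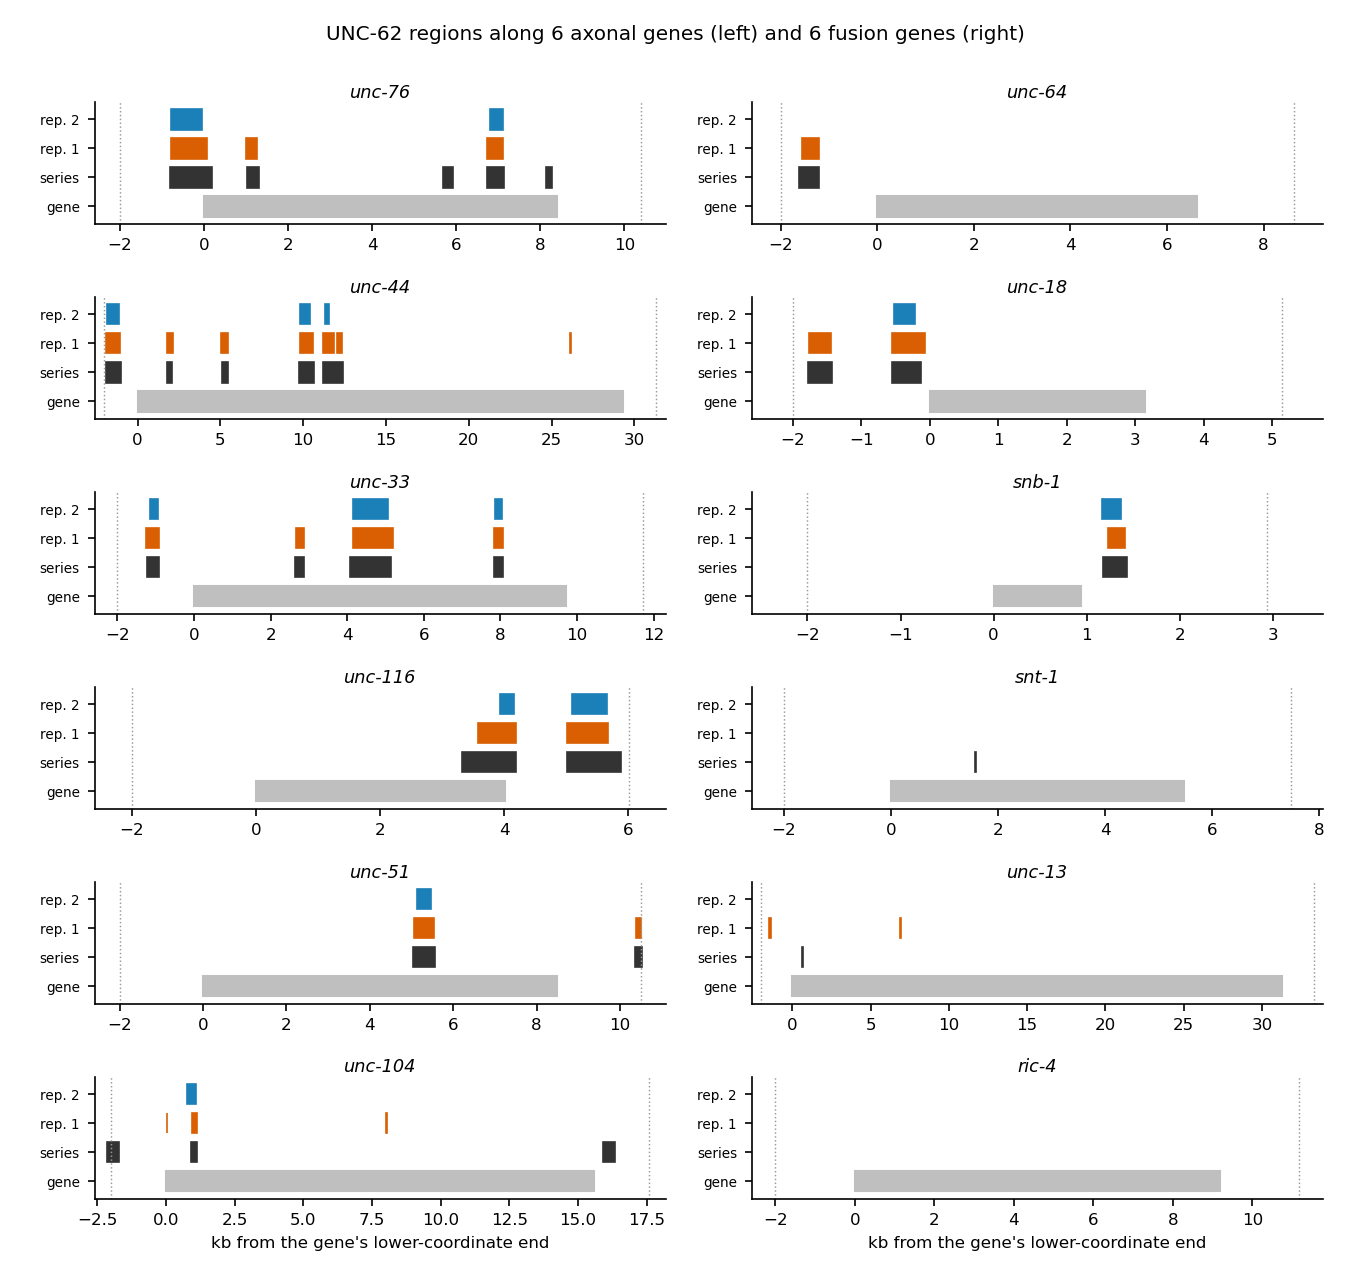
Positions of UNC-62 regions along 6 axonal genes (left) and 6 fusion machinery genes (right), in kb from the lower-coordinate end of each gene (grey bar), with the series list, replicate 1 and replicate 2 on separate lines. Dotted lines mark 2 kb outside each end, regions are drawn where their midpoint lies between them, and positions carry the offset of about 100 bp between builds; unc-44 and unc-33 each have 3 regions seen in all 3 lists, and ric-4 has none.

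Of the 8 fusion machinery genes, 7 had a region in the series list, 5 in replicate 1 and 2 in replicate 2, beside 36.0%, 35.2% and 17.0% of the other protein-coding genes. Those shares were not weighted to length, and the 8 genes ran from 0.94 to 31.3 kb. So few genes say little against those shares. The 8 genes held 9, 8 and 2 regions in total, and none had a region among the strongest 10% of any list. The strongest was at unc-64, the syntaxin gene. It lay at chrIII:13275633-13276053, 1.42 kb outside the lower-coordinate end, with rank 1814 in the series list (q-value 4.3e-15) and 1883 in replicate 1 (1.03e-09) and no match in replicate 2. At unc-18, whose Munc18 protein binds syntaxin, chrX:7682341-7682768 lay 0.342 kb outside the gene. It ranked 2110 in the series list (q-value 1.79e-13), 1839 in replicate 1 (6.25e-10) and 2820 of 3138 in replicate 2 (0.000511), and was also within 2 kb of stn-2. The synaptobrevin gene snb-1 had chrV:6656741-6656999, with series rank 3372 (q-value 6.49e-09), and syx-18 also lay within 2 kb. This region too was in both replicates (0.000249 in replicate 1 and 0.000265 in replicate 2). Of this role, only unc-18 and snb-1 had a region in replicate 2.

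The tomosyn gene tom-1, whose product restrains SNARE assembly, had chrI:5550555-5550687 inside the gene (rank 3967, q-value 1.1e-07), matched in replicate 1 only. The midpoint of this region was also within 2 kb of ostd-1. For the remaining genes of this role binding was marginal. The Munc13 priming factor gene unc-13 is 31.3 kb long and had 1 region of 71 bp in the series list (q-value 0.000267), matched by neither replicate. Replicate 1 listed 2 other regions there, with q-values of 0.0073 and 0.0092, both too weak for the limit of the other lists. The synaptotagmin gene snt-1 had a region of only 18 bp and the complexin gene cpx-1 had 1 with a q-value of 0.000233, and neither was matched in a replicate. At ric-4, the SNAP-25 gene, no list had a region, and the nearest in the series list was 3.76 kb away.

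Vesicle proteins gave 5 series regions at 3 of 4 genes and none in replicate 2, beside 36.0% and 17.0% of the other protein-coding genes with a region. With 4 genes, such counts say little against those shares. They also rest on the grouping, since snb-1, which had a replicate 2 region, and snt-1 were counted with the fusion machinery. Synapsin, encoded by snn-1, had 3 of the 5 series regions, all in flanks. The strongest, chrIV:1816203-1816788 (rank 2547, q-value 1.92e-11), was in replicate 1 (2.55e-07) but closer to the collagen gene col-109. Both rab-3, the vesicle GTPase gene, and sng-1, the synaptogyrin gene, had 1 weak region in the series list and replicate 1, with series q-values of 1.7e-05 and 5.36e-06. The region at sng-1 spanned a gene end that lies near ttr-59 and ttr-30. No region was listed at aex-3, which encodes the exchange factor of RAB-3, and the nearest was 8.53 kb away in all 3 lists.

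Active zone and calcium channel genes were divided, with a region at 2 of 4 in each list. Of the other protein-coding genes, 36.0%, 35.2% and 17.0% had a region in the series, replicate 1 and replicate 2 lists. With 4 genes, such counts say little against those shares. The liprin gene syd-2, which assembles presynaptic sites, had chrX:10555273-10555919 (647 bp), 0.357 kb beyond its higher-coordinate end and with no other protein-coding gene within 2 kb. This region ranked 407 in the series list (q-value 4.49e-40), 302 in replicate 1 (2.41e-30) and 760 in replicate 2 (1.95e-09). It was the strongest at any member outside the axonal group. The presynaptic calcium channel gene unc-2, the longest member at 52.6 kb, had 2 regions in the series list. The stronger, chrX:2712899-2713331 (rank 2894, q-value 3.23e-10), was inside the gene and in replicate 1 only, and the other, chrX:2709198-2709633 (1.49e-08), was in both replicates. In contrast, unc-10, the RIM gene, and rpm-1, a ubiquitin ligase gene that limits synapse growth, had no region in any list. For rpm-1 the choice of 2 kb mattered, since a weak series region (q-value 0.00073) had its midpoint 2.01 kb from the gene. Strong regions were 3.11 kb away in replicate 1 (1.56e-30) and 3.07 kb away in replicate 2 (1.13e-13). For unc-10 the nearest series region was 4.51 kb away (1.29e-07).

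**Figure D4:**
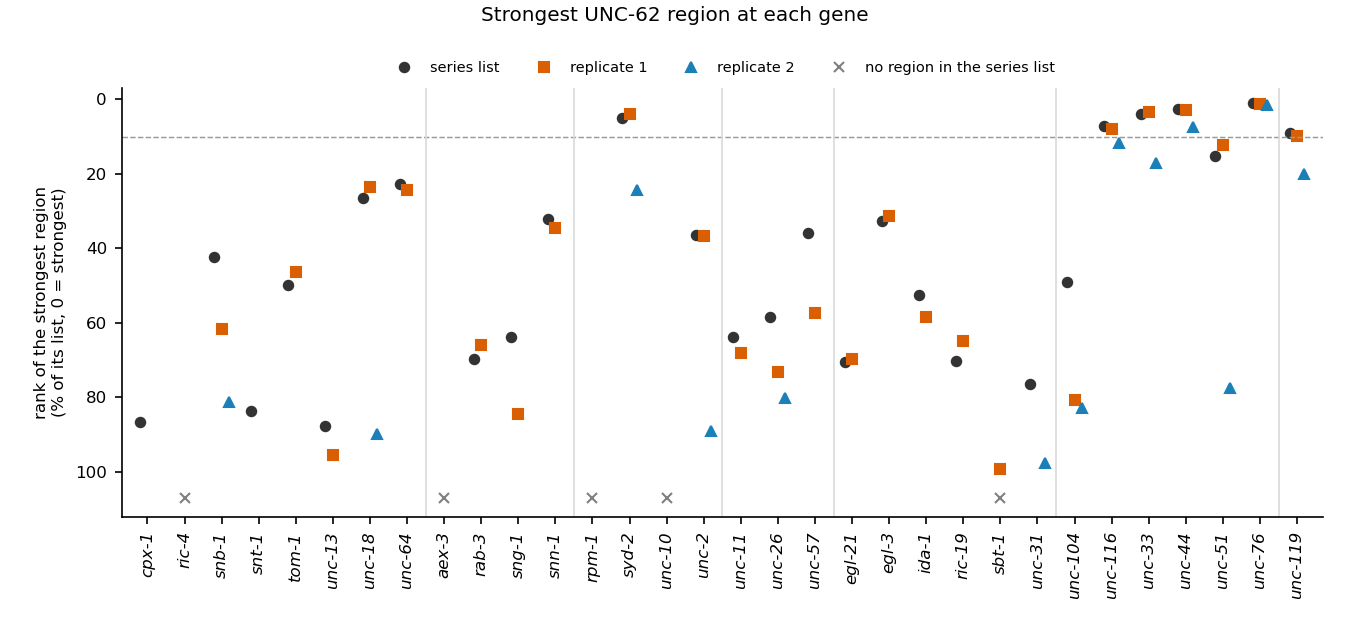
Rank of the strongest UNC-62 region at each gene as a percentage of its list (0 is strongest, axis drawn downwards), for the series list, replicate 1 and replicate 2, with genes grouped by role in the same order as in the count plot. The dashed line is at 10%; unc-116, unc-33, unc-44, unc-76, syd-2 and the marker unc-119 lie above it in the series list, and crosses mark the 5 members with no series region.

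Each of the 3 endocytosis genes had a single series region, all in flanks. All 3 had a region in replicate 1 and 1 of 3 in replicate 2. Of the other protein-coding genes, 36.0%, 35.2% and 17.0% had a region in the series, replicate 1 and replicate 2 lists. With 3 genes, such counts say little against those shares. At unc-57, the endophilin gene, this was chrI:4673567-4674219 (653 bp, rank 2851, q-value 2.22e-10), matched in replicate 1 (0.000119) and not in replicate 2. The synaptojanin gene unc-26 had a weaker region at its gene end (q-value 1.49e-06) in both replicates, and cpsf-3 also lay within 2 kb. The AP180 gene unc-11 had the weakest of the 3 (5.18e-06), in replicate 1 only and nearer to ubr-1.

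For dense core vesicles and peptide processing, 5 of 6 genes had 1 series region each, beside 36.0% of the other protein-coding genes, and 1 of 6 had a replicate 2 region, beside 17.0%. Neither share was weighted to length, and the 6 genes ran from 1.17 to 14.5 kb. So few genes say little against those shares. The best supported region belonged to egl-3, the proprotein convertase gene, at chrV:10174613-10175105 (rank 2604, q-value 2.92e-11). Replicate 1 contained it (6.81e-08) and replicate 2 did not, and no other protein-coding gene was within 2 kb. The carboxypeptidase gene egl-21, the IA-2 gene ida-1 and ric-19, related to the islet antigen ICA69, had flank regions with series q-values of 1.99e-05, 2.72e-07 and 1.82e-05, each in replicate 1 only. The regions at egl-21 and ric-19 were also within 2 kb of F01D4.5 and pmlr-1, respectively. The region at unc-31, the CAPS gene, was 16 bp wide (chrIV:12775498-12775513) and overlapped no region of either replicate. Replicate 2 listed a region of 7 bp right beside it (chrIV:12775518-12775524), which missed the match only because no base was shared. At sbt-1, whose 7B2 protein assists the convertase, the series list and replicate 2 had no region and replicate 1 had 1 at the edge of its limit (q-value 0.00975).

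The marker unc-119, a gene expressed throughout the nervous system, had 2 regions inside it in the series list, 2 in replicate 1 and 1 in replicate 2. The stronger, chrIII:10905039-10905441 (403 bp), ranked 718 in the series list (q-value 3.85e-28), 772 in replicate 1 (7.49e-18) and 626 in replicate 2 (1.04e-10). The strain also carries unc119 sequence in the transgene, and reads from the transgene and from the chromosomal gene cannot be told apart in these lists.

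Further lists of neuronal genes, and 1 of muscle genes, were set beside the members. Of 36 other presynaptic genes, 30 had a series region (83.3%), 29 a replicate 1 region (80.6%) and 15 a replicate 2 region (41.7%), beside 36.0%, 35.2% and 17.0% of the other protein-coding genes. Their median length, 8.37 kb, was close to that of the members. The shares of the other protein-coding genes, with a median of 2.0 kb, were not weighted to these lengths. The strongest regions of this list were at unc-70, the beta-spectrin gene (rank 184, q-value 8.63e-58), and at unc-16, the JIP3 kinesin adaptor gene (rank 319, 1.62e-44). Next were unc-14, which encodes a kinesin adaptor partner of UNC-51 (rank 321, 1.71e-44), and dpy-23, the AP2 mu subunit gene (rank 433, 1.92e-38). No series region was found at nrx-1, the neurexin gene, or at unc-79, nca-2, itsn-1, snt-3 and sad-1.

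Genes for making and moving single transmitters were shorter, with a median of 4.74 kb. Of 18, 7 had a series region (38.9%), 4 a replicate 1 region (22.2%) and 3 a replicate 2 region (16.7%), beside 36.0%, 35.2% and 17.0% of the other protein-coding genes. Those shares were not weighted to length. Of the 7, cha-1 and unc-17 were counted through a region of the same rank, 7578 (q-value 0.000623). Regions per 100 kb numbered 10.6 at the members, against 10.3 at these 18 genes, in the series list. In replicate 1 there were 10.2 at the members, against 4.24 at these genes, and in replicate 2 there were 4.08, against 5.46. Much of this density came from 1 gene, ace-1, with 9 regions in the series list, 2 in replicate 1 and 6 in replicate 2. The strongest regions were at snf-11, the GABA transporter gene (rank 82, q-value 4.94e-78), and at ace-1, an acetylcholinesterase gene (best q-value 1.21e-23). No list of the 3 had a region at eat-4, unc-25, unc-47 or cho-1. These encode the glutamate vesicle transporter, the GABA synthesis enzyme, the GABA vesicle transporter and the choline transporter. The members were then set against 39 muscle contractile and attachment genes, which encode the sarcomere and its anchors. In replicate 2 a region lay at 12 of 31 members (38.7%), against 34 of 39 muscle genes (87.2%). In the series list it lay at 26 of 31 members (83.9%), against 36 of 39 muscle genes (92.3%), and in replicate 1 at 24 of 31 (77.4%), against 37 of 39 (94.9%). Series regions per 100 kb numbered 10.6 at the members, against 16.6 at the muscle genes, whose median length was 6.04 kb. High shares were not limited to long genes: of 78 cytosolic ribosomal protein genes, with a median length of 0.748 kb, 96.2% had a series region and 73.1% a replicate 2 region. These lists were written with earlier results of the data known, and no test of the differences between them was made.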

How the data were processed

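The deposited region lists of UNC-62 ChIP replicates 1 and 2 and of the whole series were used. Regions were called by the authors with PeakSeq on WormBase WS220, per the file headers and the source column. No statement was found of the PeakSeq version, the aligner or the making of the series list, so these were not given in the sources used here. The value deposited by the authors with each region has no name and was read as a q-value (a p-value corrected for the number of regions). These values are the authors' own, while the ranks were computed from them here within each list.

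Genes were the protein-coding entries of a RefSeq gene table on WBcel235; all 32 symbols matched. The table gave no strand, so the planned window from 2 kb upstream to the 3′ end was replaced by the gene plus 2 kb at both ends, and the planned upstream part by both flanks. Assignment of regions to the gene with the nearest 5′ end was replaced by the nearest gene. Regions were assigned by midpoint, and matched between lists by an overlap of at least 1 bp. Counts and shares were computed with Python 3.11.15, pandas 2.3.3 and numpy 2.4.6, and the counting was tested on simulated regions.

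The members and all lists were chosen with earlier results of these data known, so no test was run. Positions and q-values were given for the strongest region of the 15 members whose strongest region ranked highest, and members without a series region were named; further regions of these members, and values of weaker members, were added after the values were seen. Depth is unknown, so no interval from read counting could be given.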

Additional observations from a re-analysis of the deposited data

How the results depend on the processing

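Of 60 values under 12 alternatives, 2 of them added after seeing the data, 37 stayed within the limits set. For counts the limit was 1.5 times the main count, and for the density its exact 95% Poisson interval (7.82 to 14.2 regions per 100 kb). That interval treats regions as independent, although some members held several and others none, so it does not measure the spread across members. The other 23 moved, mostly because fewer regions or shorter windows entered. With the gene alone, members with a region numbered 13 in the series list, 11 in replicate 1, 6 in replicate 2 and 5 in both, with 6.61 regions per 100 kb; the other genes then had 9.58%, 9.22%, 3.81% and 3.51%, and 4.77 per 100 kb. In the stronger 50% of each list the counts, in the same order of lists, were 15, 12, 5 and 5, with 13 members marked in a flank and 5.21 regions per 100 kb, beside 21%, 20.6%, 8.56%, 8.38% and 17.8% of the other genes and 3.8 per 100 kb. A reach of 1 kb left 13 members marked in a flank, beside 21.9% of the other genes, and a reach of 5 kb gave 17 members in both replicates, beside 26.8%. Counting only what holds whichever end is the 5′ end gave 14, 11, 6 and 5 in that order, beside 12.9%, 12.3%, 4.61% and 4.27%. Using series regions found in both replicates, 11 members had a region, 9 in a flank, at 3.85 regions per 100 kb, beside 16.2%, 13.5% and 2.77 per 100 kb at the other genes. Leaving out either replicate gave 12 to 24 members, 9 to 21 members marked in a flank and 4.08 to 10.2 regions per 100 kb; the low ends are the shorter replicate 2 list, where the other genes had 17.0%, 14.3% and 2.97 per 100 kb. Lowering gene coordinates by 100 bp gave 27 members in the series list. No paired analysis was possible because the region lists analysed cover ChIP samples alone. Depth limits are unknown, since the lists carry no read counts.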
